A study of Homo sapiens with 6 samples.

Results

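KMT2C, KMT2D, KDM6A, PAXIP1, NCOA6 and PAGR1 encode MLL3, MLL4, UTX, PTIP, the nuclear receptor coactivator NCOA6 and PA1, which together form the MLL3 and MLL4 branch of the COMPASS family. The 6 genes were taken as named subunits, out of 20007 protein-coding genes in GENCODE release 44. A peak was assigned to a gene when its strongest summit lay in the gene body, within 1 kb of any start site of the gene, or within 10 kb of the gene. This gave 85 of the 166021 sites on the chromosomes examined, where a site is a stretch covered by overlapping peaks of any of 6 libraries.

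MLL3 and MLL4 are histone methyltransferases that place monomethylation on lysine 4 of histone H3, chiefly at enhancers. UTX is a demethylase that removes the repressive methyl marks from lysine 27 of histone H3 and is carried in the same complexes. PTIP, PA1 and NCOA6 are found in this branch and not in the menin-bound MLL1 and MLL2 branch, to which the inhibitor used here is directed. KMT2C, KMT2D and KDM6A are known as tumor suppressor genes that are often mutated in human cancers.

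ATAC-seq was performed in HLF, an established human liver cancer cell line with a poorly differentiated phenotype. Cells received DMSO vehicle or 5 μM SNDX-5613 (revumenib), a small molecule that blocks the interaction of menin with MLL1, and each group held 3 libraries of the same labelled batch. Labels give 24 h of treatment, whereas the study's text describes a longer exposure for this assay, so the duration is uncertain. Both groups come from 1 cell line without an engineered allele, and the study's methods describe a replicate as a dish of cells divided between treatment and control. The p-values thus measure the spread between dishes of the same line.

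SNDX-5613 replicate 3 stood apart by depth. The 6 lists held 40568 to 113675 peak regions, and the genome-wide background pileup, a relative measure of depth, ranged from 0.997 to 1.51 but for SNDX-5613 replicate 3, where it was 0.211. The weakest region called in SNDX-5613 replicate 3 stood 14.2 times above its background, against 4.60 to 6.02 times elsewhere, so weak sites were often not detectable there. Among liver markers, a promoter peak was called for TTR in 5 libraries and for ALB, APOA1 and HNF4A in 0 libraries, while KRT8, KRT18 and VIM had one in all 6 libraries. Promoter peaks of PTPRC, CD3E and PECAM1, which mark blood and endothelial cells, were called in 0 libraries. In bulk chromatin, fewer cells with an open site and fewer cuts per cell cannot be told apart.

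The sequences under the promoter peaks come first, since accessibility at these starts is what the comparisons below turn on. Of the 6 genes, 4 had an entry in the RefSeq promoter table (GRCh38.p14), namely KMT2C, KMT2D, KDM6A and PAGR1; the others are PAXIP1 and NCOA6. Each sequence is given 5′ to 3′ on the strand of the gene in hg38. KMT2D (chr12:49060795-49060994, minus strand), KDM6A (chrX:44872988-44873187, plus strand) and PAGR1 (chr16:29815952-29816151, plus strand) are shown for the 200 bases before the start of the MANE transcript, the reference transcript of the gene. KMT2C (chr7:152436717-152436857, minus strand) is shown for 141 bases around the strongest summit, because that summit lay further upstream. Capitals mark letters of known promoter elements found on either strand: CCAAT (NF-Y), GGGCGG (SP and KLF factors), CACGTG (E-box) and TGANTCA (AP-1).
KMT2C: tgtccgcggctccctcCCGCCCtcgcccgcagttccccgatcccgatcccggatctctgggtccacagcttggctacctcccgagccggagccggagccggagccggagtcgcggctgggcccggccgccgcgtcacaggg
KMT2D: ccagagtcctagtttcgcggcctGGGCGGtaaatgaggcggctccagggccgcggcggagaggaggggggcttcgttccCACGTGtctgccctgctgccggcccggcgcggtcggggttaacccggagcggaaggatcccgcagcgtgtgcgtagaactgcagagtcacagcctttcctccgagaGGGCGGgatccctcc
KDM6A: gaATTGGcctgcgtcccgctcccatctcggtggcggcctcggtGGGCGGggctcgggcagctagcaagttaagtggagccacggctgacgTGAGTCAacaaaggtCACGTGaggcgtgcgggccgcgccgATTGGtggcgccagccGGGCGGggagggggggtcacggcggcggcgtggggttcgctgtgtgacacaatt
PAGR1: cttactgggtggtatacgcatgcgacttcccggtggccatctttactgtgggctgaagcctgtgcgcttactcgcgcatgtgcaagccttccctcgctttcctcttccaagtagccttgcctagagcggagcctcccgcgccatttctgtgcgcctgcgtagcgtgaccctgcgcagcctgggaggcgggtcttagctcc

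The 4 promoters differed in these letters. In the full 300 base windows of the table, KDM6A held 2 CCAAT boxes, 2 GGGCGG boxes, 1 CACGTG and 1 TGANTCA. KMT2D held 2 GGGCGG boxes and 1 CACGTG, and KMT2C held 15 GGGCGG matches, overlaps included, in a window that does not reach its peak summit. The PAGR1 window held 0 matches of any of these letters, and also 0 of the elements named for ETS factors, CREB, NRF1, YY1 and the TATA box. Of 35116 RefSeq promoters, CCAAT was in 34.6%, GGGCGG in 45%, CACGTG in 7.26% and TGANTCA in 7.71%. Of the others, the ETS letters CCGGAAG were in 10.3%, the CREB letters TGACGTCA in 1.85%, the NRF1 palindrome in 1.24%, the YY1 letters AAGATGGCG in 1.75% and the TATA box letters TATAAA in 11.5%, and KMT2C, KMT2D and KDM6A held none of these. A match is a description of the letters and not of binding.

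Base composition ranged widely among the 6 promoters. In 301 bases around the strongest summit, the share of G and C was 79.7% in KMT2C, 78.4% in PAXIP1, 70.4% in NCOA6, 66.4% in KMT2D, 65.8% in KDM6A and 61.5% in PAGR1. The median of 14694 promoter sites with a peak in all 6 libraries was 65.8%. KMT2C also had the highest ratio of observed to expected CpG of the 6, at 1.01 against a median of 0.82, and PAGR1 the lowest, at 0.74.

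Promoters of all 6 genes were open in both conditions. A promoter peak, within 1 kb of a start site, was called for 6 of 6 genes in all 6 libraries, and for 63.7% of the 20007 protein-coding genes (12740 genes). When each list was trimmed to its 40568 strongest regions, to match the shallowest library, 6 of 6 genes still had one in all 6 libraries, against 60.4% of genes. Presence therefore did not separate DMSO from SNDX-5613 at any of these promoters.

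The summits held their position across libraries. Relative to the MANE start, the strongest summit was at -71 bp in PAGR1, -72 bp in KMT2D, -111 bp in NCOA6, -132 bp in KDM6A, -238 bp in PAXIP1 and -784 bp in KMT2C. Strongest summits of the 6 libraries spread over 17 bp in NCOA6, 21 bp in KMT2C, 37 bp in KMT2D, 43 bp in KDM6A, 55 bp in PAGR1 and 174 bp in PAXIP1. The PAXIP1 site (chr7:155003023-155003926) also lay within 1 kb of the start of the divergent transcript PAXIP1-DT, so it cannot be assigned to either gene alone.

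KMT2C was the gene whose main peak did not sit on the MANE start. Its promoter site (chr7:152436247-152437035) was upstream of that start and 143 bp from the nearest other start of the gene, of which GENCODE lists 50. A weaker site that spanned the MANE start (chr7:152435749-152436024) was called in DMSO replicates 1 and 3 and SNDX-5613 replicate 1, with folds of 4.71, 2.46 and 2.64. Fold is the pileup at the summit over the local background as written by the peak caller, with 1 added to both. The added 1 lowers fold most where the local background is small, as in SNDX-5613 replicate 3. The upstream site had folds of 14.4, 14.6 and 13.2 in DMSO replicates 1 to 3 and 15.5, 13.2 and 11.6 in SNDX-5613 replicates 1 to 3. The last of these came from a pileup of 24 over a local background of 1.15.

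To compare libraries of unequal depth, -log10 p was turned into a rank percentile in each library among the 33405 sites that every library shared. The question was whether these promoters moved in rank when menin was displaced from MLL1. NCOA6 and PAXIP1 ranked lower in every SNDX-5613 library than in any DMSO library, whereas the ranks of KMT2C, KMT2D, KDM6A and PAGR1 overlapped between groups. Each test was an exact two-sided permutation test of 3 against 3 libraries, which cannot go below p = 0.1. The smallest Benjamini-Hochberg adjusted p over all 33405 sites was 0.602, so no single site passed.

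**Figure D1:**
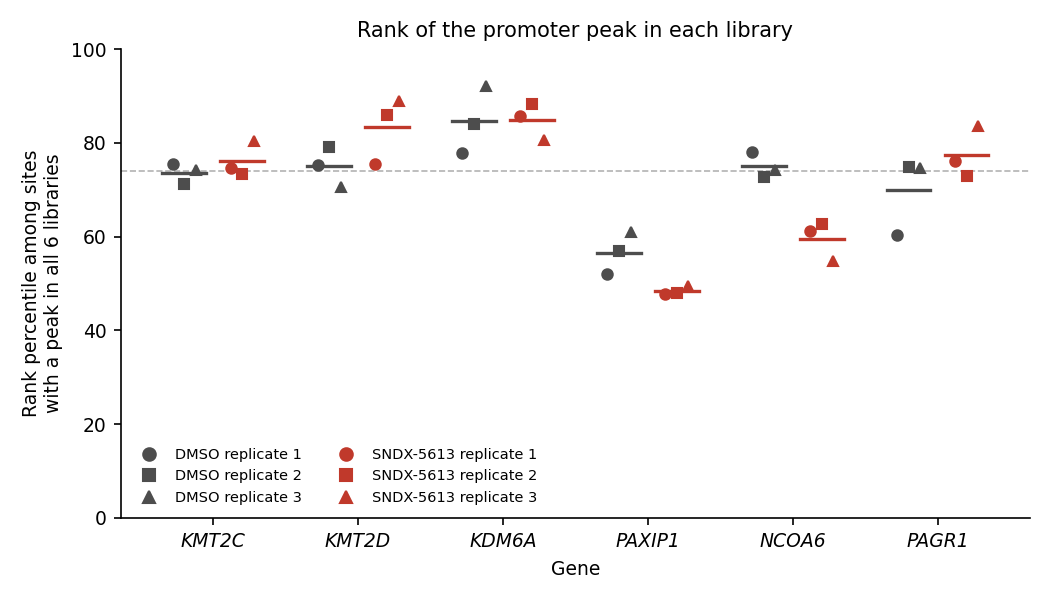
Rank percentile of the promoter peak of each gene (y axis, percentile among sites shared by all 6 libraries) in DMSO (grey) and SNDX-5613 (red) libraries; symbols give the replicate, short bars the group means, and the dashed line the median of 73.9 over 14694 shared promoter sites. Groups do not overlap at NCOA6 and PAXIP1, where SNDX-5613 is lower, as at 8.13% of those promoter sites. The SNDX-5613 values of both genes lie below the dashed line.

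NCOA6 encodes a coactivator that binds nuclear receptors. Its promoter (chr20:34824486-34825983) stood at percentiles 78.0, 72.8 and 74.2 in DMSO replicates 1 to 3 and at 61.2, 62.7 and 54.9 in SNDX-5613 replicates 1 to 3. The groups did not overlap, and the gap between them was wider than the range within either group. Means were 75.0 ± 2.71 (SD, n = 3) and 59.6 ± 4.17 (SD, n = 3), a difference of -15.4 percentile points (exact permutation p = 0.1). Over all shared promoter sites the median difference was -0.45 points, and 2.18% of them had a difference as low as that of NCOA6.

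The height of the NCOA6 peak gave the same direction. A whole number of overlapping fragments was recovered at each summit from fold and p, and this was 138, 162 and 162 in DMSO and 113, 120 and 18 in SNDX-5613. Divided by the genome-wide background of the library, the pileup was 138, 124 and 112 times background in DMSO and 89.7, 79.5 and 85.3 times in SNDX-5613, again without overlap. Means were 125 ± 13.2 and 84.8 ± 5.12 times background (SD, n = 3 each, exact permutation p = 0.1). This height was solved from the same fold and p as the ranks, so it is not separate support. The share of shared promoter sites that separate by it was not computed, here or for PAXIP1. By this measure the means at KMT2C, KDM6A and PAXIP1 were also lower with SNDX-5613, and those at KMT2D and PAGR1 higher. In SNDX-5613 replicate 3 the 95% Poisson interval of the pileup ran from 10.7 to 28.4, or 50.6 to 135 times background, which covers counting error only and reaches past the DMSO values of replicates 2 and 3 but not that of replicate 1.

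The NCOA6 difference depended in size on that library and on the ranking measure. Without SNDX-5613 replicate 3 it was -7.47 points, and without each of the others it lay between -16.9 and -13.7 points. The ranks stayed separate in all 6 cases, which is nearly fixed in advance for groups that do not overlap to begin with. Ranked by fold in place of -log10 p, the difference was -9.79 points and the groups overlapped (exact permutation p = 0.3).

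PAXIP1 encodes PTIP, a BRCT domain protein with roles in transcription and the DNA damage response. Its promoter stood at 51.9, 56.9 and 60.9 in DMSO and at 47.8, 48.0 and 49.4 in SNDX-5613. The 3 SNDX-5613 values lay close together and just under the lowest DMSO value. The means were 56.6 ± 4.51 and 48.4 ± 0.868 (SD, n = 3 each), a difference of -8.21 points (exact permutation p = 0.1). Relative to background its pileup was 75.2, 81.2 and 73.9 times in DMSO and 60.3, 54.3 and 66.4 times in SNDX-5613, with means of 76.8 ± 3.89 and 60.3 ± 6.02 (exact permutation p = 0.1). The difference was -5.39 points without SNDX-5613 replicate 3, and ranked by fold it shrank to -1.28 points with overlapping groups (exact permutation p = 0.8).

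KMT2D, which encodes MLL4, had a higher mean rank with SNDX-5613 but overlapping groups. Its promoter (chr12:49060284-49061356) stood at 75.2, 79.2 and 70.6 in DMSO and at 75.4, 85.9 and 88.9 in SNDX-5613. SNDX-5613 replicate 1 lay within the DMSO range and the other libraries above it. The means of 75.0 ± 4.34 and 83.4 ± 7.09 (SD, n = 3 each) differed by 8.40 points (exact permutation p = 0.2). Relative to background the pileup was 133 ± 19.9 times in DMSO and 140 ± 18.6 times in SNDX-5613 (SD, n = 3 each, exact permutation p = 0.6).

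KMT2C, which encodes MLL3, differed by 2.54 points. The percentiles were 75.5, 71.2 and 74.3 in DMSO and 74.7, 73.4 and 80.5 in SNDX-5613, so that only SNDX-5613 replicate 3 lay outside the DMSO range (exact permutation p = 0.5). Its pileup relative to background had the opposite sign, with 111 ± 7.36 times in DMSO and 101 ± 13.6 times in SNDX-5613 (SD, n = 3 each, exact permutation p = 0.4), so no direction holds for this promoter.

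KDM6A, which encodes UTX and lies on the X chromosome, had the highest mean rank of the 6 promoters. It stood at 77.9, 84.0 and 92.1 in DMSO and at 85.7, 88.3 and 80.7 in SNDX-5613, and the means of 84.7 ± 7.14 and 84.9 ± 3.88 (SD, n = 3 each) differed by 0.191 points (exact permutation p = 1). By pileup the groups were 148 ± 13.1 and 130 ± 9.91 times background (exact permutation p = 0.2). The direction turned with the measure.

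PAGR1, which encodes PA1, a small partner of PTIP, had the highest pileup over the genome-wide background of the 6 promoters in every library, and the lowest fold in every library but SNDX-5613 replicate 3. Its promoter (chr16:29815847-29817150) reached 157, 196 and 171 times the genome-wide background in DMSO and 178, 148 and 213 times in SNDX-5613. The fold over local background was 5.63, 7.34 and 6.67 in DMSO and 7.34, 6.30 and 7.20 in SNDX-5613. The local background behind these folds was 27.1 to 36.2 in the DMSO libraries, against 7.28 to 10.4 at the KMT2C promoter. In rank, PAGR1 stood at 60.5, 74.8 and 74.6 in DMSO and at 76.0, 73.0 and 83.5 in SNDX-5613, a difference of 7.55 points with overlapping groups (exact permutation p = 0.4).

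**Figure D2:**
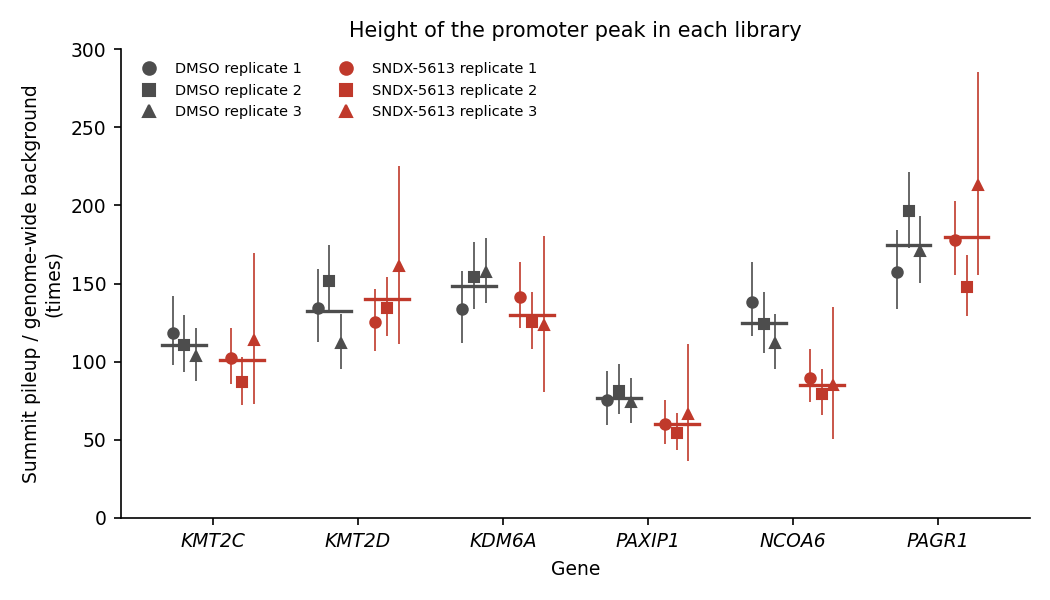
Summit pileup of the promoter peak divided by the genome-wide background of the library (y axis, times) for each gene in DMSO (grey) and SNDX-5613 (red) libraries; symbols give the replicate, vertical lines the 95% Poisson interval of the pileup (counting error only) and short bars the group means. PAGR1 is highest, PAXIP1 lowest, and the widest intervals belong to SNDX-5613 replicate 3.

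Averaged over the 6 libraries, the promoters ranked in the order KDM6A, KMT2D, KMT2C, PAGR1, NCOA6 and PAXIP1. PAXIP1 was below NCOA6 in 6 of 6 libraries, by 14.8 ± 6.63 points (SD, n = 6). The other neighbours did not keep their order: KDM6A was above KMT2D in 5 of 6 libraries, KMT2D above KMT2C in 4, KMT2C above PAGR1 in 2 and PAGR1 above NCOA6 in 5. As a group the 6 promoters were ordinary in rank, with a median percentile of 74.3 against 73.9 for all shared promoter sites.

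Away from the promoters, the loci differed in how many sites they held. KMT2C had 21 sites, NCOA6 18, KMT2D and KDM6A 14 each, PAGR1 10 and PAXIP1 8. Of the 85 sites, 21 had a peak in all 6 libraries, 13 in 5, 20 in 2 to 4 and 31 in 1. The shares in all 6 libraries and in 1 were 24.7% and 36.5%, near the 20.1% and 36.2% of all 166021 sites. Each of the 13 sites found in 5 libraries was missing from SNDX-5613 replicate 3. By position, 55 sites were intronic, 10 exonic and 20 in the flanks, and 13 lay within 1 kb of the start of another gene. PAGR1 sits in a crowded stretch, with 7 of its 10 sites near starts of neighbours such as MAZ, PRRT2 and MVP.

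**Figure D3:**
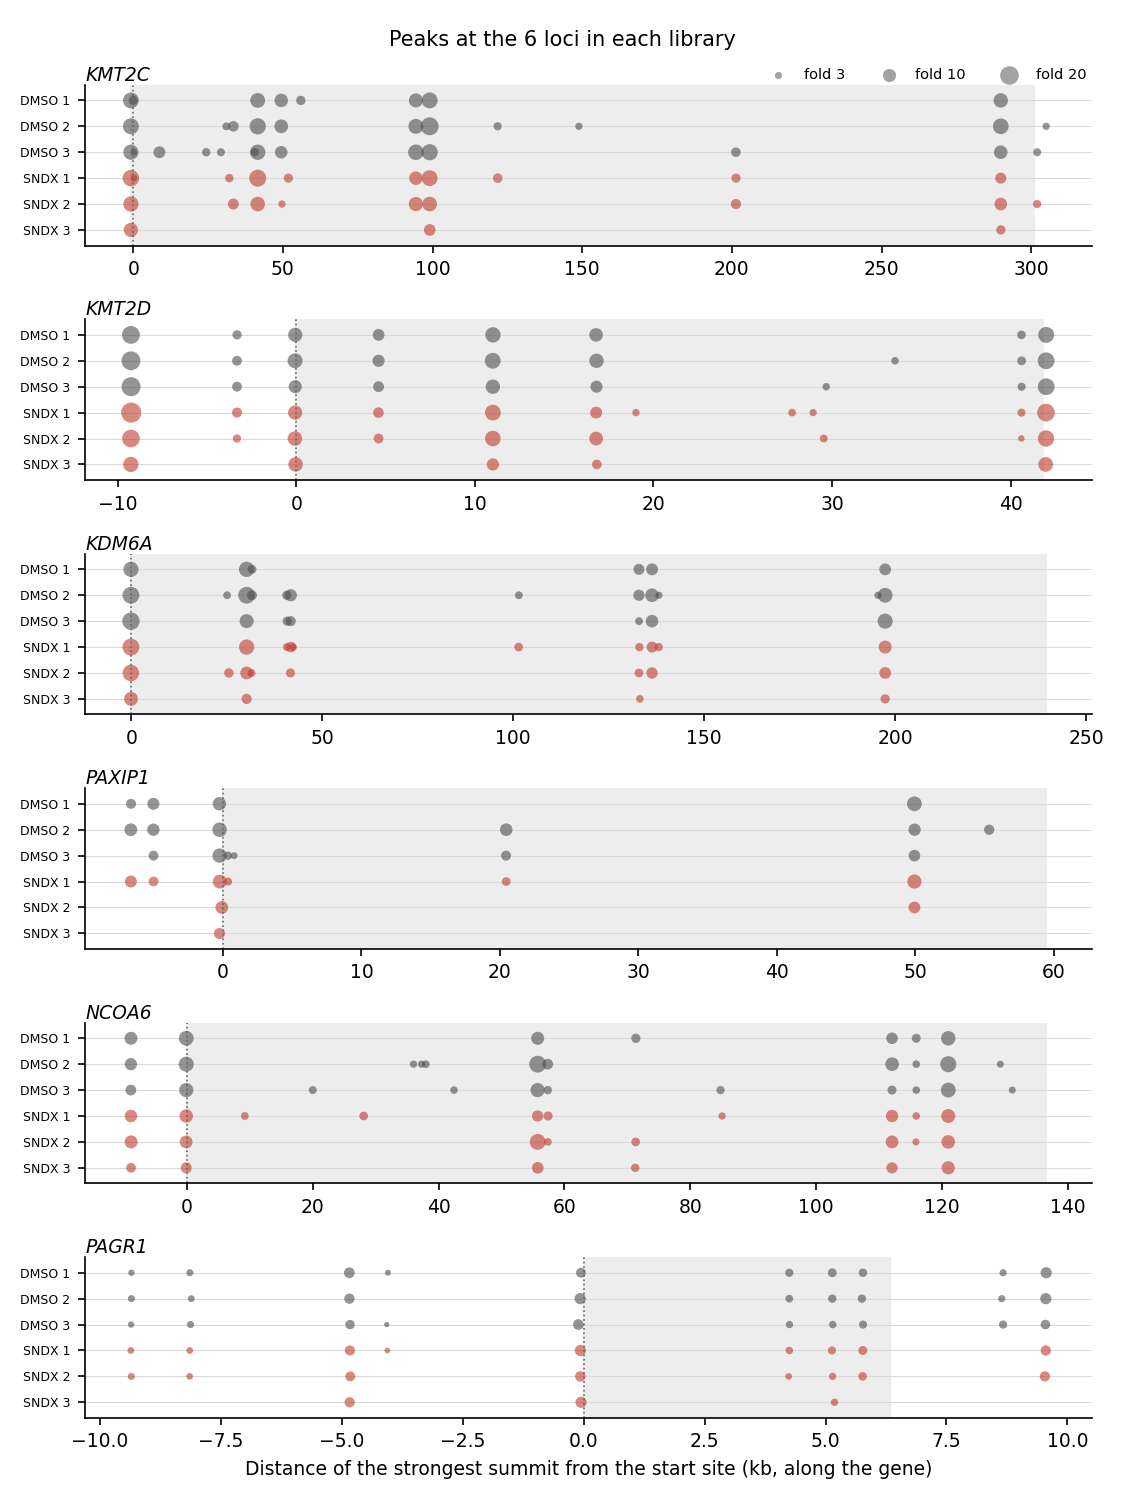
Peaks at each gene (panels) by library (rows), plotted by the distance of the strongest summit from the MANE start in kb along the gene (x axis); the area of a point is proportional to fold, grey shading is the gene body and the dotted line the start. Recurrent columns of points are seen at the promoter of every gene and at a few internal sites, and SNDX-5613 replicate 3 has the fewest points.

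**Figure D4:**
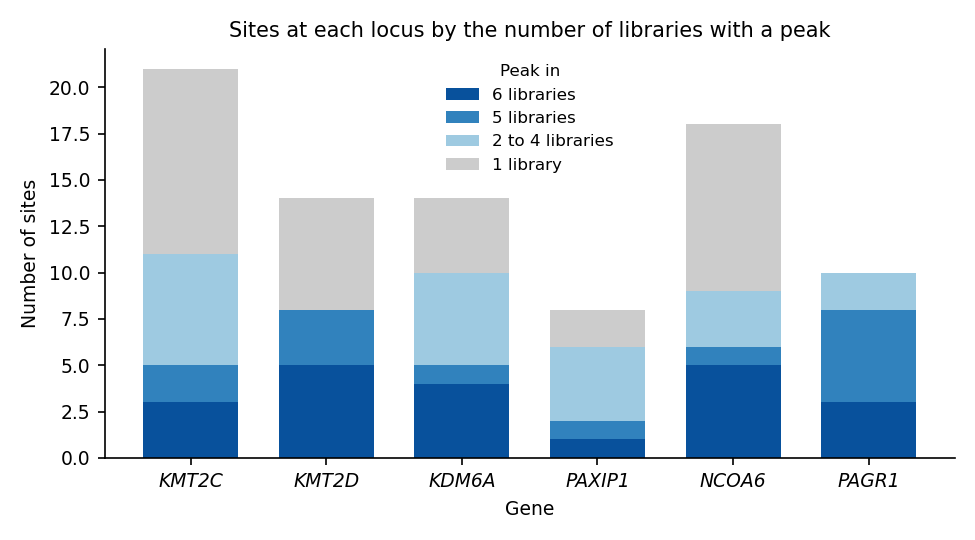
Number of sites at each gene (bars, y axis) divided by the number of libraries with a peak. KMT2C and NCOA6, with 21 and 18 sites, have the most sites seen in 1 library (10 and 9), and PAGR1 has 0 such sites.

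The density of sites seen in every library differed between the genes. In the gene bodies there were 0.663 such sites per 100 kb in KMT2C, 1.25 in KDM6A, 4.78 in KMT2D and 15.8 in PAGR1. NCOA6 held 3 over 136555 bp. PAXIP1 had 0 in its gene body, its promoter summit being upstream of the gene, and the median over protein-coding genes was also 0, so that KMT2C and KDM6A were at percentiles 55.6 and 61.2 of all such genes. PAGR1 spans 6338 bp and KMT2C 301723 bp, so the PAGR1 value rests on 1 site and the KMT2C value on 2. That PAGR1 site lay within 1 kb of starts of the neighbours MVP and MVP-DT.

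The total number of regions at the 6 loci was 45, 59 and 57 in DMSO replicates 1 to 3 and 57, 45 and 24 in SNDX-5613 replicates 1 to 3. These totals overlapped, with means of 53.7 ± 7.57 and 42.0 ± 16.7 (SD, n = 3 each, exact permutation p = 0.5), and the lowest belonged to the shallow library. The regions covered 16125, 20390 and 21438 bases in DMSO and 20258, 19382 and 8661 bases in SNDX-5613 (exact permutation p = 0.5). Without SNDX-5613 replicate 3 the difference in covered bases changed sign, to 502 bases more with SNDX-5613 (exact permutation p = 1).

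Of the 21 member sites present in all 6 libraries, 1 ranked higher in every SNDX-5613 library than in any DMSO library, where 8.54% of all shared sites did. In the opposite direction there were 2, the promoters of NCOA6 and PAXIP1, where 8.08% of all shared sites did. Both counts were near what those backgrounds give for 21 sites. Without SNDX-5613 replicate 3, 34 member sites had a peak in the other 5 libraries, of which 2 ranked above, against 14.3% of all such sites, and 10 ranked below, against 14.4%.

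The 10 sites were spread over all 6 genes. Besides the promoters of NCOA6 and PAXIP1 they were 3 intronic sites of KMT2C, with differences of -19.8, -10.6 and -9.61 points, and 2 sites of KMT2D, in exon 55 (-21.2 points) and in an intron (-12.1 points). The others were 1 intronic site of KDM6A (-13.6 points), the site near the start of TP53INP2 in NCOA6 (-4.40 points) and 1 exonic site of PAGR1 near the start of MVP (-15.5 points). The 2 sites above were the KMT2D exonic site described next (6.71 points) and another exonic site of PAGR1 (6.15 points). These sites were selected by their values, with 3 DMSO against 2 SNDX-5613 libraries, and no test was made on them.

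**Figure D5:**
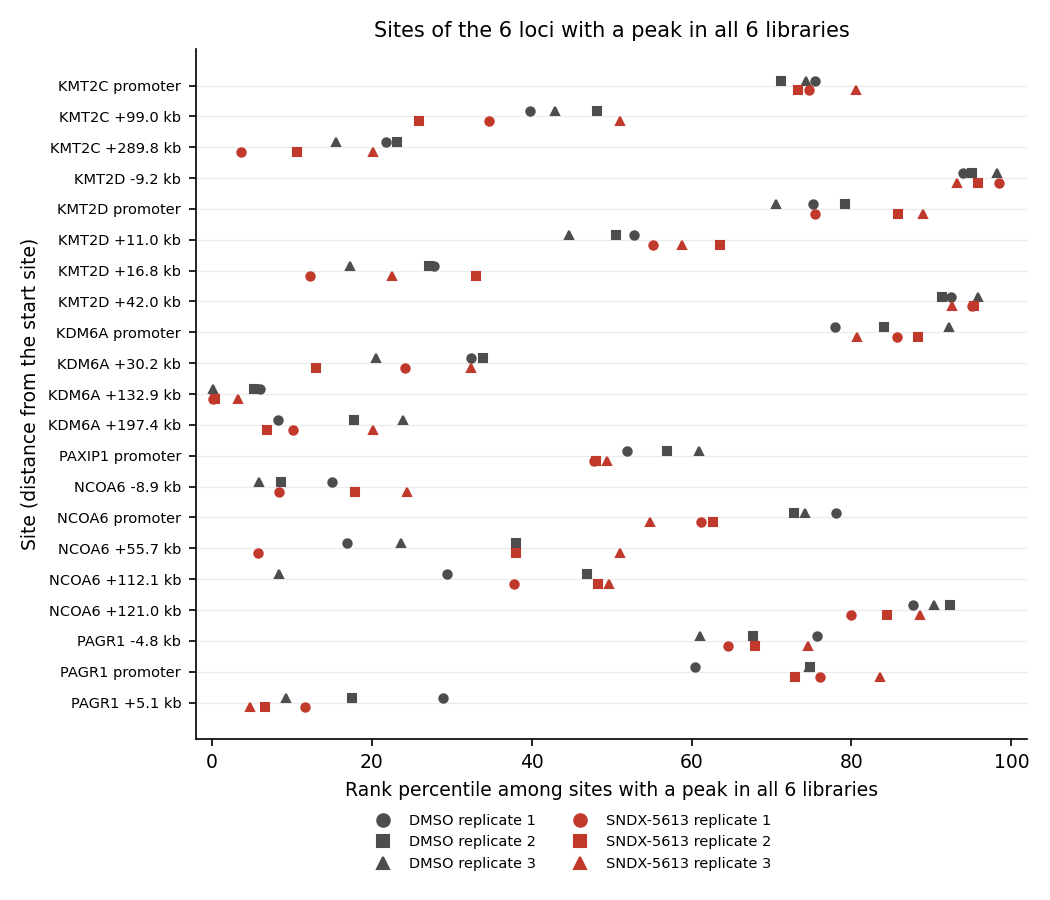
Rank percentile (x axis) of the 21 sites at the 6 loci that all 6 libraries shared, labelled by gene and distance from the MANE start, for DMSO (grey) and SNDX-5613 (red) libraries; symbols give the replicate. The groups are separate in 3 sites: the exonic KMT2D site, where SNDX-5613 is higher, and the promoters of PAXIP1 and NCOA6, where it is lower.

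The site that ranked higher lay in KMT2D, across the end of exon 12 of the MANE transcript (chr12:49049413-49050313), with its summit in the exon. It stood at 52.8, 50.6 and 44.7 in DMSO and at 55.2, 63.6 and 58.8 in SNDX-5613. The lowest SNDX-5613 value was only a few points above the highest DMSO value, and the mean difference was 9.82 points (exact permutation p = 0.1). Without each library in turn the difference was 6.71 to 11.8 points. The groups stayed separate in these cases, which is nearly fixed in advance for groups that do not overlap with all 6 libraries. The pileup relative to background did overlap, at 63.2, 61.3 and 47.0 times in DMSO and 61.1, 62.3 and 66.4 times in SNDX-5613. The site is also 1019 bp from an internal start of KMT2D, just past the distance that would make it a promoter site here.

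The 141 bases around its summit (chr12:49049718-49049858, minus strand) are shown because this was the 1 shared site of the 6 genes that ranked higher with SNDX-5613 without overlap. Capitals mark 2 matches of TGANTCA and 1 of GGGCGG. Windows of this length around shared sites outside promoters held TGANTCA in 24.3% and GGGCGG in 11.3% of 18711 cases.
KMT2D exonic site: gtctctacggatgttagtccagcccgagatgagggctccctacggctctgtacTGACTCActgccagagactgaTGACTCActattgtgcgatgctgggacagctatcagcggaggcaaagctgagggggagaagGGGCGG

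Loss and gain of peaks were rare. Of the 85 sites, 0 were gained, meaning called in every SNDX-5613 library and in no DMSO library, where 0.147% of all sites were. There was 1 lost site, with the opposite pattern, where 1.18% of all sites were lost. It lay downstream of PAGR1, 8671 bp from its start (chr16:29824691-29824945), with folds of 2.92, 2.97 and 3.91 in the DMSO libraries. These are weak peaks, and the call ended when lists were trimmed to equal numbers of regions and when a peak had to cover 50% of the site. The site also overlapped a region of the authors' SNDX-5613 consensus set, as well as one of the DMSO set. Without SNDX-5613 replicate 3 there were still 0 gained and 1 lost among the member sites, where 2.39% of all sites were gained and 1.21% lost. A stronger site next to it (chr16:29825209-29826006) was kept in 5 libraries, with folds of 7.22, 7.24 and 5.39 in DMSO and 6.08 and 6.06 in SNDX-5613 replicates 1 and 2.

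Around the summit of the lost site (chr16:29824753-29824893, plus strand) the sequence held 1 TGANTCA match, in capitals, and 37.6% G and C.
Site lost downstream of PAGR1: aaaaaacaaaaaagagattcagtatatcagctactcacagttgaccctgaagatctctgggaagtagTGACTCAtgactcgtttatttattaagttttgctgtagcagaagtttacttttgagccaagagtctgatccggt

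A site in an intron of KMT2C came close to loss. At chr7:152386299-152386748, 49454 bp into the gene, the folds were 10.5, 10.8 and 8.99 in DMSO, while among SNDX-5613 libraries a peak was called only in replicate 2, with a fold of 3.05. Within each library's own list this was percentile 54.8, 61.5 and 52.7 in DMSO and 2.28 in SNDX-5613 replicate 2. The summit in that last library lay near the edge of the site, apart from those in DMSO. No peak was called in SNDX-5613 replicate 1, with 107347 regions, or in SNDX-5613 replicate 3, where weak sites were often not detectable. The cause of the missing calls was not tested. Under the stricter threshold for peaks this site counted as lost. This site falls outside the naming rule and was chosen after its values were seen.

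The 141 bases around its DMSO summit (chr7:152386479-152386619, minus strand) are shown as the clearest intronic difference, and none of the letters searched occurred in them.
KMT2C intronic site: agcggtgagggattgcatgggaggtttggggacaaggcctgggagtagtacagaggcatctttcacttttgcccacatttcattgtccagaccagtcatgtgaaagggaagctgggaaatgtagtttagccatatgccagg

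A site upstream of PAXIP1 was also called in fewer SNDX-5613 libraries. At chr7:155008048-155008224, the summit at -5018 bp from the start, folds were 8.33, 8.82 and 5.58 in DMSO and 5.49 in SNDX-5613 replicate 1, with no peak called in SNDX-5613 replicates 2 and 3. It too was picked after its values were seen. This site overlapped both consensus sets, whereas the intronic site of KMT2C overlapped the DMSO set alone. Together with the intronic site of KMT2C, it made up the sites called in every DMSO library and in a single SNDX-5613 library. The share of all sites with this pattern was not computed, so their number cannot be set against a background.

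For each gene, the site outside promoters with the highest minimum percentile in the library lists that had it, among sites in at least 5 libraries, is given next. In KMT2C this site (chr7:152341498-152341644, intron) had folds of 11.4, 13.0 and 13.9 in DMSO and 10.5 and 11.6 in SNDX-5613 replicates 1 and 2. The matching site of KDM6A (chrX:45009276-45009812, intron) had folds of 8.17, 10.7 and 9.12, then 7.01 and 7.43. For PAXIP1 (chr7:154953136-154953404, intron) the folds were 12.5, 8.68 and 7.77, then 11.5 and 7.97. All 3 were called in 5 libraries and not in SNDX-5613 replicate 3, and those of KMT2C and KDM6A are among the 10 sites that ranked below DMSO without that library. This choice does not pick the highest fold: an intronic site of KMT2C called in all 6 libraries (chr7:152336878-152337239) had folds of 14.6, 18.4 and 15.1 in DMSO and 14.5, 12.3 and 7.86 in SNDX-5613. An intronic site of KDM6A called in all 6 (chrX:44903253-44903545) likewise had folds of 13.5, 16.1 and 11.3, then 13.4, 9.52 and 6.05. Both were added after their values were seen. Their folds in SNDX-5613 replicate 3 are lowered by the 1 added to pileup and background, so the fall there cannot be read as less accessibility. In NCOA6 the site chosen this way (chr20:34769634-34770159, intron) was called in all 6, at percentiles of 16.9, 38.0 and 23.6 in DMSO and 5.80, 38.0 and 51.1 in SNDX-5613, with overlapping groups.

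The largest mean difference among the 21 shared sites did not separate the groups. It was at an NCOA6 intronic site (chr20:34713479-34713934, 1042 bp from an internal start), with percentiles of 29.4, 47.0 and 8.37 in DMSO and 37.7, 48.4 and 49.7 in SNDX-5613. The difference of 17.0 points rested largely on DMSO replicate 3 (exact permutation p = 0.2), and it went in the opposite direction to the NCOA6 promoter.

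Sites at neighbouring genes were among the highest of the loci. The start of RHEBL1, upstream of KMT2D, stood at 95.7 on average in DMSO and 95.8 in SNDX-5613 (exact permutation p = 0.9). The start of PRKAG1, just past the end of KMT2D, stood at 93.2 and 94.3 (exact permutation p = 0.6). The site near the start of TP53INP2, in an intron of NCOA6, stood at 90.1 and 84.3 (exact permutation p = 0.2). These peaks were assigned by distance and say nothing on which gene they act.

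The other COMPASS and enhancer regulators showed mostly overlapping ranks. All 12 of KMT2A, KMT2B, MEN1, ASH2L, WDR5, RBBP5, DPY30, SETD1A, SETD1B, KDM6B, CREBBP and EP300 had a promoter peak in all 6 libraries. The promoter of KMT2B, which encodes the menin-binding methyltransferase MLL2, was the 1 that ranked higher in every SNDX-5613 library, where 7.42% of shared promoter sites did. Its means were 85.2 ± 5.53 in DMSO and 92.8 ± 1.21 in SNDX-5613 (SD, n = 3 each), a difference of 7.61 points (exact permutation p = 0.1). Of the 12, 0 ranked lower in every SNDX-5613 library, where 8.13% of shared promoter sites did. MEN1, which encodes menin, had the highest ranks of the list (98.7 ± 0.728 and 99.3 ± 0.449, exact permutation p = 0.3), and EP300 the lowest (29.4 ± 4.96 and 18.8 ± 9.56, exact permutation p = 0.2). The median difference was 1.47 points over these 12 and 1.37 points over the 6 members.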

How the data were processed

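ATAC-seq peak lists of 6 libraries of HLF cells, 3 with DMSO and 3 with SNDX-5613, were analysed, grouped by the labels. Per the study's methods and the submitters' processing notes, the authors trimmed paired reads with Trim Galore 0.6.7, aligned them to hg38 with Bowtie2 2.3.4.1, marked duplicates with Picard 2.20.0, called peaks per library with MACS2 and combined replicates with RMSPC. A Tn5 shift, a blacklist and a mapping quality filter were not given in the sources used here. The deposited lists hold fold enrichment, a ratio of pileup to local background with 1 added to both, and -log10 p and -log10 q per summit. The deposited consensus sets hold a combined -log10 p. Read counts were not analysed here, so no count model was fitted.

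Summits of the same region were merged, and regions of the 6 libraries overlapping by 1 bp or more were joined into sites. A whole-number pileup and its local background were solved from fold and p within a tolerance of 0.001, which succeeded for 100% of regions in each library and for 0.64% to 1.1% after p was shuffled. The most frequent background of a library served as its genome-wide background. Ranks, exact two-sided permutation tests and Benjamini-Hochberg adjustment over 33405 sites were computed in Python 3.11.15 with scipy 1.17.1 and checked on simulated data. Motifs were searched on both strands. Positions are hg38 with GENCODE release 44, and 0 summits lay past a chromosome end.

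The text names the 6 promoter sites, for each gene the site outside promoters of any gene with the highest minimum list percentile, among sites in at least 5 libraries, gained and lost sites, sites with separate ranks, neighbours within 1 kb and a list of 12 related regulators. The members and lists were chosen with earlier results of these data known. As alternatives, peaks were limited to those with -log10 q of 3 or more, and the others were equal numbers of regions, ranking by fold, pileup over background or the library's own list, presence by covering 50% of a site, a promoter distance of 3 kb, assignment by any overlap, a replicate block and leaving out each library.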

Additional observations from a re-analysis of the deposited data

How the results depend on the processing

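The promoter ranks of KMT2D, PAXIP1, NCOA6 and PAGR1 kept their sign in each of the 10 alternatives run for each gene. Among these, the replicate block leaves the difference unchanged by construction and so could not turn it. For NCOA6 and PAXIP1, whose groups do not overlap, leaving out single libraries could hardly turn the sign either. The 6 promoters kept a peak in all 6 libraries under each of the 3 alternatives. KMT2C turned to -9.83 times background by pileup and to -2.13 points in the library's own list. KDM6A turned to -18.4 times background, to -2.87 points in the own list and, with single libraries left out, ranged from -3.16 to 3.89 points, with -3.16 without DMSO replicate 1, -0.138 without DMSO replicate 2, -0.210 without SNDX-5613 replicate 1 and -1.51 without SNDX-5613 replicate 2. Leaving out single libraries gave -16.9 to -7.47 points for NCOA6, -10.4 to -5.39 for PAXIP1, 3.17 to 12.4 for KMT2D, 0.241 to 3.94 for KMT2C and 2.72 to 9.95 for PAGR1.

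Member sites with all SNDX-5613 ranks above DMSO numbered 2 when ranked by fold, where 7.92% of shared sites did so. With single libraries left out they numbered 1 to 4, where 12.3% to 14.5% of all ranked sites did so. Those below DMSO numbered 2 when ranked by fold, where 6.83% of shared sites did so. These were intronic sites of KMT2C (chr7:152145973-152146320 and chr7:152336878-152337239), and not the promoters of NCOA6 and PAXIP1. With single libraries left out, those below numbered 2 to 10. They were 10 of 34 sites without SNDX-5613 replicate 3, where 14.4% of all ranked sites did so, and 6 of 21 without DMSO replicate 3, where 13% did. With fewer libraries, separation is easier to reach by construction. Lost sites numbered 2 under the stricter threshold, 0 with equal numbers of regions, 0 with 50% cover and 1 to 2 with single libraries left out. Leaving out single libraries gave a share of lost sites among all sites of 1.21% to 3.3%. That share was 3.3% without SNDX-5613 replicate 1 and 2.1% without SNDX-5613 replicate 2, the cases with 2 lost member sites. For the stricter threshold, equal numbers and 50% cover no such share is given here. Gained sites stayed at 0 in each of the 9 alternatives, while their share of all sites moved from 0.147% to 2.39% without SNDX-5613 replicate 3. The second lost site was the KMT2C intronic site under the stricter threshold and without SNDX-5613 replicate 2, and the upstream PAXIP1 site without SNDX-5613 replicate 1. The cause was not tested. Leaving out single libraries moved the difference in covered bases between -5296 and 502, and it was 502 without SNDX-5613 replicate 3, the library with the least depth.

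The study's methods describe each replicate as a dish divided between treatment and control, but the labels do not say that a shared number marks a shared dish. Same-numbered libraries hardly deviated together (r of 0.0313, 5.9e-05 and 0.0184 over 33405 sites), so the comparison without a pairing was kept as the reported one. With a replicate block, an exact sign-flip test whose smallest p is 0.25 gave p = 0.25 for the differences of NCOA6 (-15.4), PAXIP1 (-8.21) and KMT2D (8.40), and p = 0.5 for regions and 0.75 for covered bases.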

Other observations

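In the authors' consensus sets, which combine the replicates of each group, 41 of the 85 member sites overlapped a region of both sets, 7 of the DMSO set alone, 5 of the SNDX-5613 set alone and 32 of neither. Overlap with these sets was not counted over all sites, so the split of 7 against 5 cannot be set against a background. The sets and the library calls can differ. A PAXIP1 site in the SNDX-5613 set alone (chr7:155002283-155002426) was called only in DMSO replicate 3. A KMT2C site in the DMSO set alone (chr7:152402436-152402789) was called in 1 library of each group. PAGR1 had 9 of its 10 sites in both sets and PAXIP1 5 of its 8. KMT2C had 12 of its 21 sites in neither set and NCOA6 10 of its 18, and these are also the genes with the most sites seen in 1 library.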
